A study of Mus musculus with 6 samples.

Results

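The 10 genes described here, Prph, Nefl, Nefm, Nefh, Ina, Stmn2, Stmn3, Tubb3, Gap43 and Uchl1, build or remodel the cytoskeleton of ganglion neurons or mark their cytoplasm and growth. They were taken as every probe set that the array's platform annotation assigns to 1 of these symbols alone, which gave 18 of 45101 probe sets. A probe set is a group of short probes read together as 1 signal. RNA came from whole carotid bodies, the arterial chemoreceptor organs that sense blood oxygen, of untreated male mice aged 28 days from 2 inbred strains of one supplier. The A/J strain gave 3 pools of 20, 21 and 19 mice (40, 42 and 38 carotid bodies). The DBA/2J strain gave 3 pools of 19, 18 and 19 mice (38, 36 and 38 carotid bodies), and each pool was read on 1 Affymetrix Mouse 430 2.0 array. No transgene or deletion is named for either strain, and the strains differ across the whole genome.

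Axons are held open by neurofilaments, which are polymers of light, medium and heavy subunits (Nefl, Nefm, Nefh) together with alpha-internexin (Ina) and, in peripheral neurons, peripherin (Prph). Stathmins such as Stmn2 and Stmn3 bind tubulin and regulate microtubule turnover, Tubb3 is the neuronal beta-tubulin, and Gap43 is a membrane protein of growth cones. Uchl1 (PGP9.5) is an abundant neuronal ubiquitin hydrolase that also marks the oxygen-sensing type I cells of the carotid body, which are neuroendocrine and receive sensory endings from the petrosal ganglion. In whole organs, a difference in signal cannot separate fewer cells or fibres of a type from less RNA in each.

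The genes showed no common direction between the strains. Folds of A/J are given here from the difference of mean log2(signal + 16), so they are not ratios of mean signals. The light and medium neurofilament subunits, Nefl and Nefm, were lower in DBA/2J. Their folds were 0.41 and 0.59 for the 2 probe sets of Nefl and 0.44 for Nefm. Uchl1, 2 of 3 probe sets of Ina, and Gap43 were higher in DBA/2J, at 2.02-fold, 1.89-fold, 1.59-fold and 1.52-fold. None of these passed the test across the whole array. With limma and Benjamini-Hochberg adjustment over 27022 probe sets, 0 of the 18 had an adjusted p under 0.05, where 3.27% of all probe sets tested did. All 18 were bright enough to be tested. At an unadjusted limma p under 0.05, 6 of 18 passed (4 higher and 2 lower in DBA/2J), against 15.3% of all probe sets. The median log2 difference, DBA/2J minus A/J after log2(signal + 16), as used throughout, was -0.085 over the 18 and 0.011 over all probe sets tested.

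**Figure D1:**
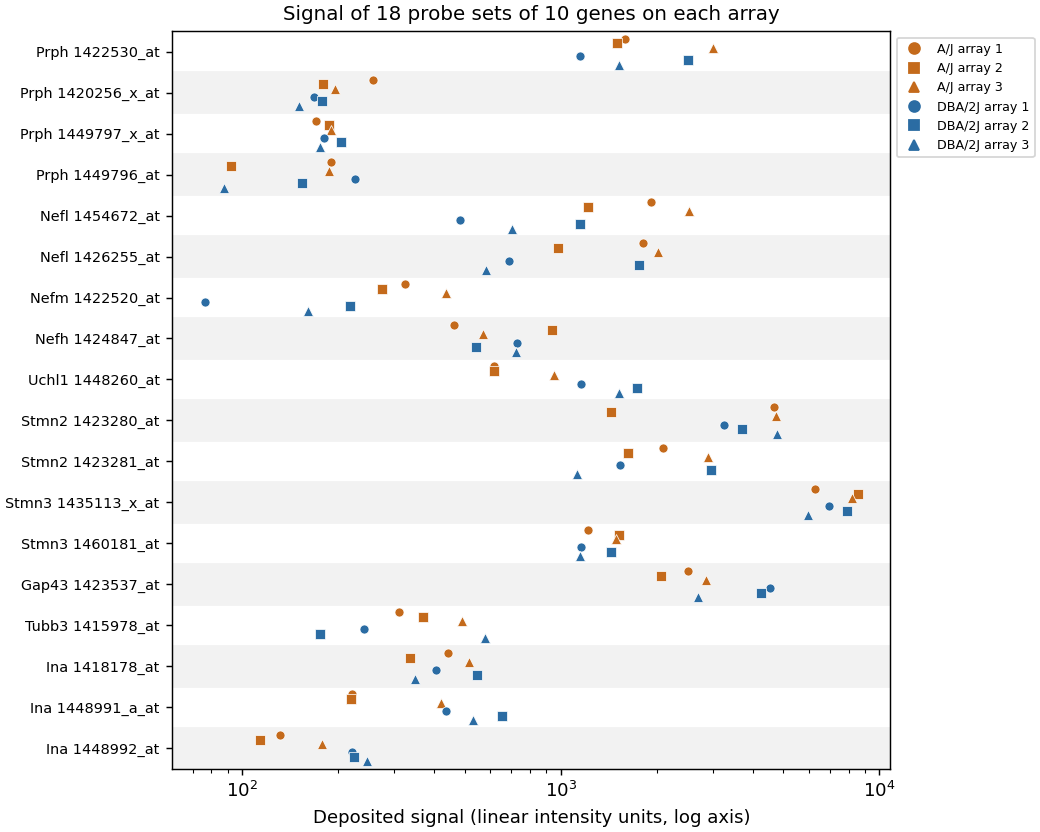
Deposited signal (x axis, linear intensity units on a log axis) of the 18 probe sets of the 10 genes on each of 6 arrays. Colour gives the strain and marker shape the array number within it. The 3 DBA/2J points lie below all A/J points for Nefl 1454672_at and Nefm 1422520_at and above them for Uchl1 1448260_at, while the signal of one probe set cannot be set against that of another.

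Nefl, the neurofilament light chain, was read by 2 probe sets. For 1454672_at the A/J arrays 1 to 3 gave signals of 1917, 1215.5 and 2532, and the DBA/2J arrays 1 to 3 gave 484, 1147 and 702. The strains did not overlap, although the lowest A/J and the highest DBA/2J array lay close together. The A/J mean was 1888 ± 659 and the DBA/2J mean 778 ± 338 (SD, n = 3), a log2 difference of -1.29 with a 95% interval from -2.08 to -0.49 (limma adjusted p = 0.0976). For 1426255_at the A/J signals were 1807, 981 and 2024 and the DBA/2J signals 689, 1763 and 582. Here the strains overlapped, because DBA/2J array 2 was above A/J array 2, though below the other A/J arrays. The log2 difference was -0.77 with an interval from -1.72 to 0.18 (limma adjusted p = 0.452).

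Nefm, the medium chain, had signals of 325, 274 and 437 in A/J and 76.3, 218 and 161 in DBA/2J. Again every DBA/2J array was below every A/J array, with DBA/2J array 2 the highest of its strain. The means were 346 ± 83.3 and 152 ± 71.5 (SD, n = 3), with a log2 difference of -1.18 and an interval from -1.98 to -0.39 (limma adjusted p = 0.127). Nefl and Nefm are neighbours in the RefSeq annotation of GRCm38.p6, with 1 pseudogene and 0 protein-coding genes between them.

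Whether Nefl and Nefm passed depended on the arrays and their weights. Without DBA/2J array 2, limma called 4.95% of all probe sets and 2 of the 18, Nefl 1454672_at (log2 difference -1.61, adjusted p = 0.0214) and Nefm (-1.48, adjusted p = 0.0377). Array weights kept all arrays and gave less weight to those further from their strain's mean. With them, limma called 11.1% of all probe sets and 4 of the 18, both of Nefl, Nefm and Gap43. Over the 18 alternatives run for Nefl 1454672_at, its log2 difference ran from -1.89 to -0.95 and its adjusted p from 0.00227 to 0.780. Over the 17 for Nefm the ranges were -1.79 to -0.80 and 0.00646 to 0.749, and no alternative turned the direction of either. The 3' to 5' signal ratio of Gapdh, a measure of RNA integrity and labelling, was 1.74, 4.87 and 1.81 on the A/J arrays and 2.50, 3.28 and 1.73 on the DBA/2J arrays. The array with the highest ratio in A/J had the lowest Nefl signal of that strain, and the array with the highest ratio in DBA/2J had the highest. The part of this ratio in the neurofilament values was not tested.

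Nefh, the heavy chain that is added to neurofilaments as axons mature, did not separate the strains. Its signals were 463, 937 and 569 in A/J and 729.6, 541 and 724 in DBA/2J. The DBA/2J values lay inside the A/J range, and the log2 difference of 0.07 had an interval from -0.56 to 0.69 (limma adjusted p = 0.946). Prph, the intermediate filament typical of peripheral sensory and autonomic neurons, gave 1592, 1505 and 3014 in A/J and 1147, 2507 and 1524 in DBA/2J with its bright probe set 1422530_at. The strains overlapped widely, and the log2 difference of -0.24 had an interval from -1.01 to 0.53 (limma adjusted p = 0.821). The remaining probe sets of Prph were dimmer, with signals from 87.9 to 256.4, and had log2 differences of -0.30, 0.03 and -0.03. For the first of these, 1420256_x_at, the DBA/2J values lay below all A/J values, the closest being 178.4 and 178.7. The suffix _x_at marks probe sets whose probes can also match other transcripts.

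Ina, alpha-internexin, gave different answers by probe set, although the annotation traces all 3 to 1 source record. For 1448991_a_at the signals were 221, 219 and 422 in A/J and 435, 653 and 531 in DBA/2J. Every DBA/2J array was above every A/J array, with A/J array 3 just short of DBA/2J array 1. The log2 difference was 0.92, with an interval from 0.27 to 1.57 (limma adjusted p = 0.149). For 1448992_at the signals were 132, 114 and 178 in A/J and 220.3, 225 and 246 in DBA/2J. These also did not overlap, and the log2 difference was 0.67 with an interval from 0.14 to 1.20 (limma adjusted p = 0.201). For 1418178_at, in contrast, the signals were 442, 337 and 517 in A/J and 406, 544 and 349 in DBA/2J, a log2 difference of 0.00094 with an interval from -0.55 to 0.55. The log2 ratio of 1448991_a_at to 1418178_at on the same array averaged -0.61 ± 0.33 over the A/J arrays and 0.31 ± 0.25 over the DBA/2J arrays (SD, n = 3), without overlap.

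Uchl1 had the smallest p of the 18. Its signals were 615, 617 and 950.3 in A/J and 1160.3, 1735 and 1520.2 in DBA/2J. Every DBA/2J array exceeded the highest A/J array. The means were 727 ± 193 and 1472 ± 290.3 (SD, n = 3), with a log2 difference of 1.01, an interval from 0.46 to 1.56 and a limma adjusted p of 0.0621. Over its 18 alternatives the difference stayed between 0.69 and 1.22, with adjusted p from 0.0563 to 0.522. When the probe sets of each gene were averaged first and p was adjusted over 13006 genes, the same single probe set of Uchl1 had an adjusted p of 0.0421. In that limma fit Uchl1 was the 1 called gene of the 10, and 4.59% of all genes were called.

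**Figure D2:**
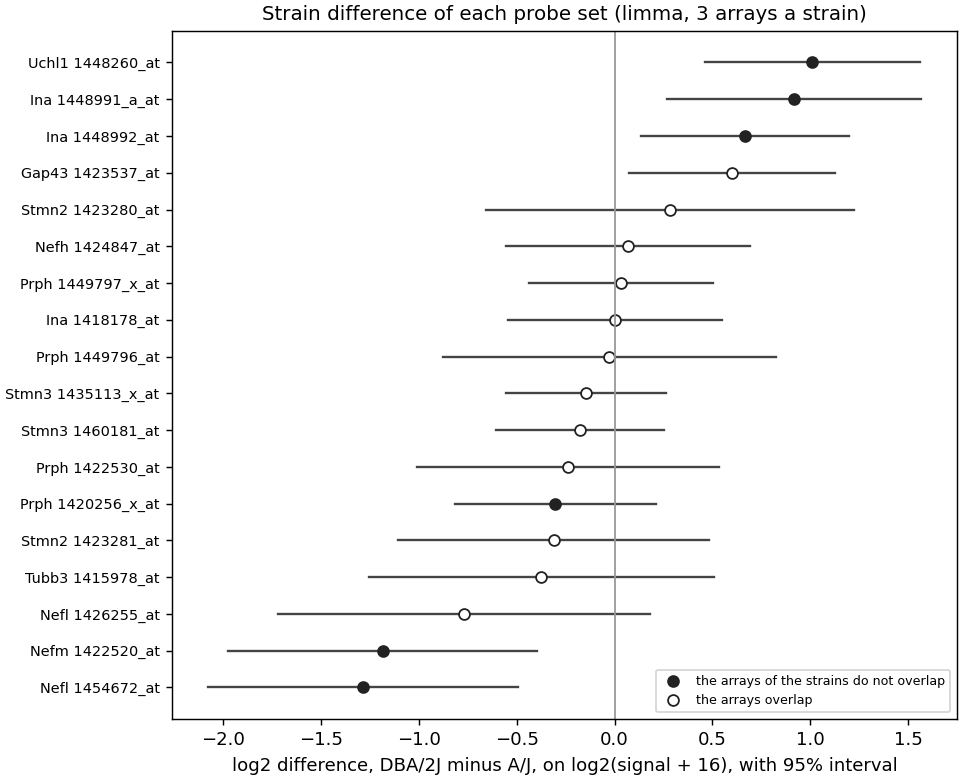
Log2 difference between strains (x axis, DBA/2J minus A/J, after log2(signal + 16)) with its 95% limma interval for each of 18 probe sets, 3 arrays a strain. Filled points mark probe sets whose arrays do not overlap between strains, 3 higher and 3 lower in DBA/2J. The values run from -1.29 for Nefl 1454672_at to 1.01 for Uchl1.

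Of the 18 probe sets, 3 had all DBA/2J arrays above all A/J arrays, which 11.5% of all probe sets tested did, and 3 had all below, which 9.54% did. They belong to 5 genes: Uchl1 and Ina above, and Nefl, Nefm and Prph below. The series states its own rule of 6 of 9 pairwise comparisons, a change of 1.5-fold and p under 0.05. With folds of single array pairs and the unadjusted limma p in its place, 5 of 18 passed (Nefl 1454672_at, Nefm, Uchl1 and Ina 1448991_a_at and 1448992_at), against 9.9% of all probe sets.

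Because Uchl1 and the neurofilament subunits lay on opposite sides, their ratio on each array was compared, a choice made after the values had been seen. The overall brightness of an array nearly cancels in such a ratio. The log2 ratio of Uchl1 to Nefl 1454672_at was -1.61, -0.96 and -1.40 on the A/J arrays and 1.23, 0.59 and 1.10 on the DBA/2J arrays. The strains lay far apart, with means of -1.32 ± 0.33 and 0.97 ± 0.34 (SD, n = 3) and a difference of 2.30. The ratio of Uchl1 to Nefm was 0.89, 1.12 and 1.09 in A/J and 3.67, 2.90 and 3.12 in DBA/2J, a difference of 2.20. With the other Nefl probe set, 1426255_at, the difference was 1.78, also without overlap. Over all alternatives the 3 differences ran from 2.02 to 2.67, from 1.90 to 2.48 and from 1.45 to 2.35. Exact permutation of the strain labels gave p = 0.1 for each of the 3, the smallest value possible with these arrays. Adjusted over 6 ratios, the exact permutation p was 0.15. Since the pairs were chosen for their opposite sides, this p adds no support and the ratios are a description. They give no order of the genes' levels.

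**Figure D3:**
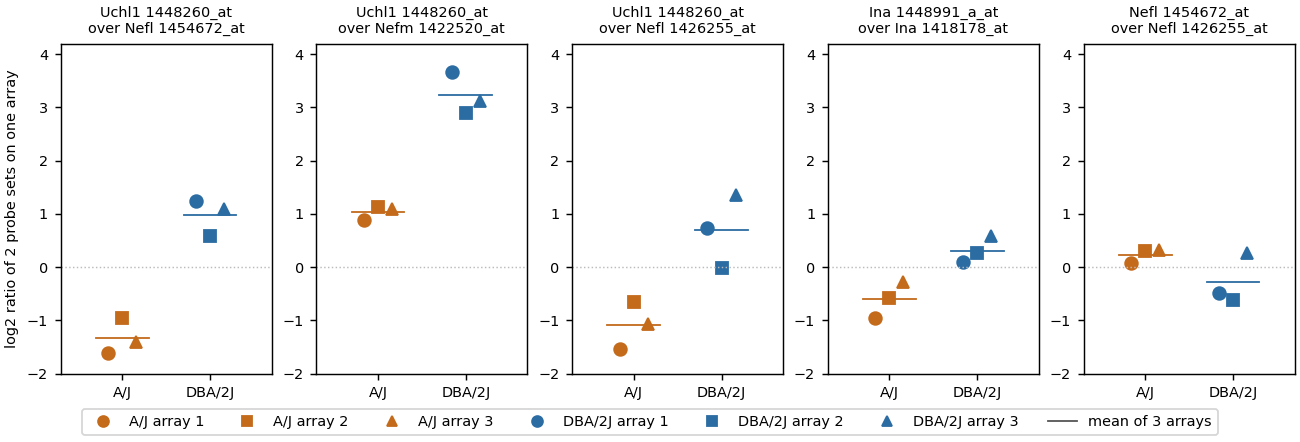
Log2 ratio of 2 probe sets on the same array (y axis) for 5 pairs, with 1 point per array and a line at the mean of 3 arrays of a strain. For Uchl1 over Nefl 1454672_at the A/J arrays lie between -1.61 and -0.96 and the DBA/2J arrays between 0.59 and 1.23, and the height of a ratio has no meaning of its own, only its difference between strains.

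The sequences before the transcription starts of Uchl1 and Ina, whose DBA/2J arrays lay above all A/J arrays in 3 of their 4 probe sets, are shown beside that of Prph, where none did. Prph, Ina, Uchl1, Stmn3 and Tubb3, 5 of the 10 genes, matched RefSeq's promoter table (GRCm38.p6). Each sequence is the 250 bases before the start, 5′ to 3′ on the gene's strand (+ for these 3). Capitals mark a TATA box (TATAAA) or a GC box (GGGCGG or its complement), and the CCAAT box was searched too, all on both strands. The windows are chr5:66675871-66676120 for Uchl1, chr19:47014431-47014680 for Ina and chr15:99054924-99055173 for Prph.
Uchl1: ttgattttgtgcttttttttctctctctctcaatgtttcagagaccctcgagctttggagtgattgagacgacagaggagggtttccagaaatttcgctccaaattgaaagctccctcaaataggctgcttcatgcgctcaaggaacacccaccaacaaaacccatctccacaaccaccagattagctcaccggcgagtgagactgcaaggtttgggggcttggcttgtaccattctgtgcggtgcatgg
Ina: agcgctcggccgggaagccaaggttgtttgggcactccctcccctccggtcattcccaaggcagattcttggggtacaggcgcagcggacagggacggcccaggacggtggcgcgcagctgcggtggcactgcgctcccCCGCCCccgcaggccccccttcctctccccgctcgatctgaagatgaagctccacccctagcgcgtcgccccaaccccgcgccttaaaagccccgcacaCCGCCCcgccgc
Prph: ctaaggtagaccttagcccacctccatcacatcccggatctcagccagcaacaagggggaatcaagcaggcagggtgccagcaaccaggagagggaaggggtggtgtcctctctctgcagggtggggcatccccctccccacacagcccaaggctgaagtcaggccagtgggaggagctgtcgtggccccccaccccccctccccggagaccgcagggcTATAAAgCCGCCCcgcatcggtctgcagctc
The Uchl1 window held none of the 3 motifs and had 48.8% G and C, with 7 CG pairs. The Ina window had 70.8% G and C, 25 CG pairs and 2 GC boxes. The Prph window had a TATA box that starts 31 bases before the start and a GC box on the other strand, 24 bases before it. Of the windows not shown, that of Tubb3 had 68% G and C, 21 CG pairs, 2 GC boxes and a CCAAT box. That of Stmn3 had 48.8% G and C, 3 CG pairs and none of the motifs. Arrays of the strains overlapped for both genes. The part of these sequences in the strain differences was not tested. Over the 32851 windows of the table, 12.4% held TATAAA, 32.7% GGGCGG and 33.8% CCAAT, the median G and C content was 52.4% and the median number of CG pairs was 6. The reference sequence is of another strain, C57BL/6J, so it shows neither A/J nor DBA/2J alleles.

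Gap43, a growth cone protein that is phosphorylated during axon growth, had signals of 2499, 2067 and 2866 in A/J and 4526, 4241 and 2705 in DBA/2J. DBA/2J arrays 1 and 2 were above all A/J arrays, and array 3 was inside their range. The log2 difference was 0.60 with an interval from 0.07 to 1.13 (limma adjusted p = 0.253). Stmn2 (SCG10), a stathmin of growing axons, was read by a pair of probe sets whose differences had opposite signs and lay within the spread between arrays. For 1423280_at the signals were 4679, 1441 and 4724 in A/J and 3259, 3716 and 4784 in DBA/2J. A/J array 2, the one with the highest Gapdh ratio, stood apart from the other arrays. The log2 difference was 0.29 with an interval from -0.66 to 1.23, and -0.28 without A/J array 2. For 1423281_at the log2 difference was -0.31, from -1.11 to 0.48. Neither passed (limma adjusted p = 0.824 and 0.759).

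Stmn3 (SCLIP), a related neuronal stathmin, varied little between arrays. Its signals for 1435113_x_at were 6285, 8553 and 8213 in A/J and 6925, 7923 and 5951 in DBA/2J, and those for 1460181_at were 1215, 1524 and 1494 in A/J and 1156, 1437 and 1148 in DBA/2J. The strains overlapped in both. The log2 differences were -0.14 and -0.18, with intervals from -0.55 to 0.27 and from -0.61 to 0.25, so a 2-fold change either way lay outside both intervals. Tubb3 had 311, 368 and 490.1 in A/J and 241, 176 and 577 in DBA/2J, with DBA/2J array 3 the highest of all and array 2 the lowest. Its log2 difference was -0.37, from -1.25 to 0.51 (limma adjusted p = 0.735).

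Relatives of these genes were not called either, with p under 0.05 before adjustment for 1 of 7 intermediate filament genes, 4 of 11 tubulins and 1 of 3 stathmin and hydrolase relatives. Of 7 tested intermediate filament genes of other cells and of the nuclear lamina, 0 passed, with a median log2 difference of -0.29, against 0.025 over the 13006 genes tested. When probe sets were averaged by gene, 2 of the 7 fell, Des (desmin, -1.69, limma adjusted p = 0.00758) and Synm (synemin, -1.26, 0.0195), both abundant in muscle. The mean of Des joins unlike probe sets, the brightest at -0.29 (limma adjusted p = 0.695) and the other at -3.09. Those of Synm were at -1.02 (limma adjusted p = 0.0602) and -1.50. Vim, vimentin, was at -0.31 (limma adjusted p = 0.376) and Lmna at -0.20 (0.779). Of 11 other tubulin genes 0 passed, with a median of -0.23; Tuba1a was at -0.23 (limma adjusted p = 0.455) and Tubb5 at 0.27 (0.596). Of 3 tested relatives of the stathmins and Uchl1, 0 passed, with Stmn1 at 0.58 (limma adjusted p = 0.0980) and Uchl5 at -0.22 (0.671). Over all genes tested, 17.1% had an unadjusted limma p under 0.05 and 3.77% were called. Over the 190 genes in all lists described here, 73 and 31 did. Of the 190, 14 of the called genes were skeletal muscle markers and 10 type I cell markers.

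Among genes of axon growth, contact and transport, the counts called were 1 of 19, 1 of 15, 2 of 27 and 0 of 14 in the 4 lists, beside 3.77% of all genes, and are too few to set these lists apart. Of 19 genes of microtubule-associated and guidance proteins, 1 rose and 0 fell, with a median of 0.15. It was Crmp1, a collapsin response mediator, which rose from 193 ± 7.01 to 502 ± 117 (SD, n = 3; log2 difference 1.28, limma adjusted p = 0.0173). Of 15 genes of the spectrin and ankyrin scaffold and axonal adhesion, Cntn1, contactin 1, rose from 1318 ± 343 to 2929 ± 629 (limma adjusted p = 0.0391) and 0 fell, with a list median of -0.16. Other probe sets of Cntn1 ran from -0.47 to 0.95, and the gene's mean did not pass (0.55, limma adjusted p = 0.166). Of 27 growth cone and regeneration genes, with a median of -0.10, Epha5, an ephrin receptor, rose from 202 ± 17.3 to 455 ± 103 (limma adjusted p = 0.0325). Gpm6b, a membrane proteolipid of neurons and glia, fell from 9614 ± 1284 to 5773 ± 608 (limma adjusted p = 0.0495), with other probe sets from -0.62 to -0.08 and a gene mean that did not pass (-0.48, limma adjusted p = 0.127). Of 14 genes of axonal transport motors 0 passed by limma (3 before adjustment), the median was -0.18, and Kif1b and Dync1h1 were at -0.29 and 0.13.

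The median signal of an array was 163.6 to 183, and arrays correlated at 0.939 to 0.964 within a strain and 0.925 to 0.946 between strains, over probe sets.

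Markers of other cells of the organ were compared in the same way. Summed over each list as a share of all signal on the array, the A/J arrays held 0.0550% to 0.0769% for the 10 genes and the DBA/2J arrays 0.0622% to 0.0754%, ranges that overlap. Each gene enters by its brightest probe set, so bright genes weigh most. Mean signals in A/J and DBA/2J were 7683 and 6933 for Stmn3 but 346 and 152 for Nefm. The list of other ganglion neuron markers held 0.0631% to 0.0815% on A/J arrays and 0.0773% to 0.0975% on DBA/2J arrays, which overlap too. Of its 18 tested genes 0 passed (5 before adjustment), with a median log2 difference of 0.18; Syt1, a synaptic vesicle calcium sensor, was at 0.63 (limma adjusted p = 0.222, and 0.86 with 0.0331 for its mean over probe sets) and Npy at 0.09 (0.918). Of the sensory and visceral ganglion genes on that list, P2rx2, P2rx3, Scn10a, Tlx3, Pou4f1, Chrna5 and Trpv1 were too dim to test, with the highest signal at 166.1. Others of that list, among them Ntrk3, Chrna3, Chrnb4, Scn9a and Isl1, were bright enough to be tested. Their mean signals in A/J and DBA/2J were 1160 and 1121, 592 and 720, 488 and 532, 476 and 440, and 714 and 2019. The group is described by its symbols, and the arrays do not show which cells the signals came from.

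The share of the type I cell markers ran from 0.174% to 0.194% on A/J arrays and from 0.324% to 0.356% on DBA/2J arrays. Of 20 tested, 10 rose and 0 fell, with a median of 0.79, among them Insm1 (2.93), Scg2 (1.71) and Chgb (1.60). Their share was higher in DBA/2J, as the signal of Uchl1 was, and their part in its difference was not tested. The share of the glia markers ran from 0.139% to 0.167% on A/J arrays and from 0.106% to 0.117% on DBA/2J arrays. Of 11 tested, 1 fell and 0 rose, with a median of -0.57; it was Ugt8a, an enzyme of myelin lipids, at -2.22. By gene means Mag and Cdh19 fell as well (-0.90 and -0.83, limma adjusted p = 0.0360 and 0.0474). Their share was lower in DBA/2J, as the signals of Nefl and Nefm were, and so was that of the skeletal muscle markers, whose share was 0.167% to 0.392% on A/J arrays and 0.00614% to 0.00976% on DBA/2J arrays. The part of these markers in the neurofilament values was not tested. All 14 tested muscle genes fell, with a median of -5.81, and Ckm, Mylpf and Pvalb had the smallest adjusted p. Of 7 adipocyte genes, Fabp4 and Ucp1 fell, with a median of -0.77, and the share of the list was 0.204% to 0.286% on A/J arrays and 0.123% to 0.177% on DBA/2J arrays. Before adjustment 4, 3 and 1 passed, but no gene was called, among 9 smooth muscle and pericyte markers (Acta2 at -0.29, Tagln at -0.44), 8 endothelium markers (Kdr at 0.69, Cldn5 at 0.55) or 7 fibroblast markers (Col3a1 and Dcn at -0.14 and -0.15), by limma. The medians of these lists were -0.05, 0.14 and -0.14.

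**Figure D4:**
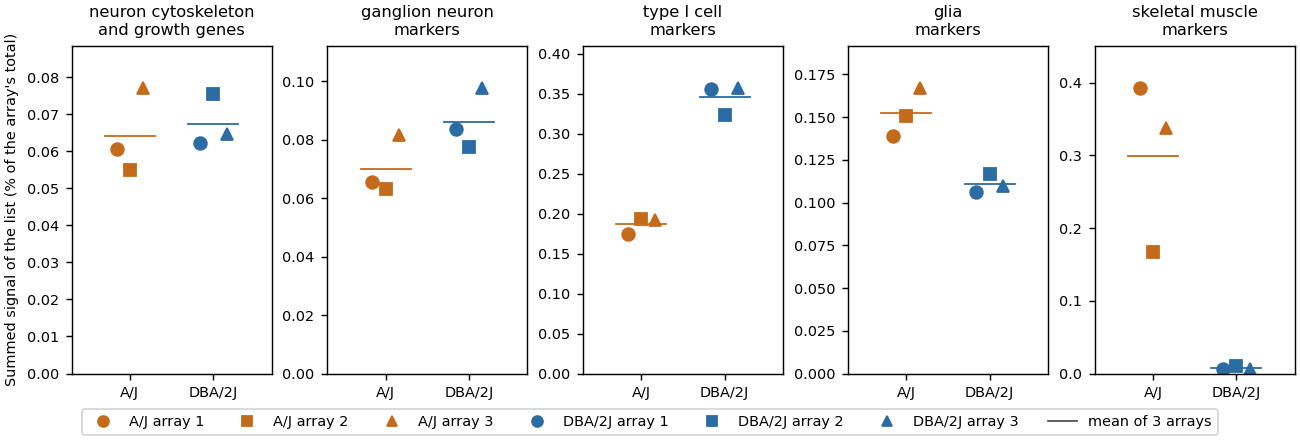
Summed signal of each gene list as a percent of the array's total (y axis, starting at 0, with its own scale in each panel), 1 point per array and a line at the mean of 3 arrays. The 10 neuron cytoskeleton and growth genes overlap between strains, the type I cell markers lie between 0.324% and 0.356% in DBA/2J above all A/J arrays, and the glia and skeletal muscle markers lie below them.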

How the data were processed

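RNA of pooled carotid bodies was amplified by repeated cDNA synthesis and in vitro transcription from the poly(A) tail, per the labels' protocols, which shortens products and can dim probe sets far from the 3' end. The deposited values are linear signal intensity per probe set; the 2% trimmed mean is 500.0 on every array, so the authors had scaled them. The software that made them: not given in the sources used here. No detection call was used.

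After removal of 64 Affymetrix controls, log2(signal + 16) was taken and the 27022 brightest probe sets (60%, ranked on their mean over all arrays) were tested in R 4.3.3 with limma 3.58.1 (lmFit, eBayes with trend, two-sided, Benjamini-Hochberg over all tested, threshold 0.05). The procedure was tested on simulated data. A gene in a list was read by its brightest tested probe set. Figures were drawn with matplotlib 3.10.9. Named are all 18 probe sets, and from each other list up to 3 called genes with the smallest adjusted p or, with none called, the 2 with the highest mean signal. Members and lists were chosen with earlier results of these data known. Genes named outside this rule were chosen after their values were seen. Alternatives were other scalings, pseudocounts, filters and weights, leaving out arrays, gene means, and blocks for a number shared by some array titles. An array is a pool, so p-values measure the spread between pools, and their number, 3 a strain, limits precision.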

Additional observations from a re-analysis of the deposited data

How the results depend on the processing

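Of the 19 alternatives to the count of 0 of 18 probe sets called by limma, 15 also gave 0. Array weights gave 4 (Nefl 1454672_at, Nefl 1426255_at, Nefm and Gap43), leaving out both arrays numbered 2 gave 3, averaging probe sets by gene gave 1, and leaving out each array in turn gave 0 to 2. Fits without 1 array or with the shared-number pairs left out have fewer arrays. The count over all probe sets, 883, was 3007 with array weights, 345 to 1338 without 1 array, 2143 and 191 without both arrays numbered 2 and 3, and 0 with the number shared by array titles as a fixed block. The count over the other lists, 31, was 65 with weights, 47 and 16 without those pairs, and 0 with the fixed block. Under that replicate block limma left 1955 probe sets and 1 of the 18 at an unadjusted p under 0.05. As a random block it left 4080 probe sets and 6 of the 18 at an unadjusted limma p under 0.05, and 848 and 0 were called after adjustment. Arrays that share a number did not deviate together (correlations of -0.26 and 0.035 across probe sets), so they were not treated as pairs. Array 1 of A/J and array 1 of DBA/2J share no number with another array. In the fixed block they did not enter the strain difference, which rested on arrays 2 and 3 of each strain. The fixed block cannot tell this loss of arrays from an effect of the number. What the number marks is not stated in the labels, and its part in the lost calls was not tested.

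Nefl, Nefm, Uchl1, Gap43, Tubb3, Stmn3 1460181_at, Ina 1448991_a_at and 1448992_at and Prph 1420256_x_at kept their direction in every alternative run. Others turned, all at differences that did not pass. Ina 1418178_at turned to -0.015 with quantile normalization, -0.012 with median scaling, -0.13 with weights, -0.00041 with the random block and -0.33 without arrays numbered 2. With weights, Prph 1449797_x_at was at -0.015, Prph 1449796_at at 0.25 and Stmn2 1423280_at at -0.040. Without arrays numbered 2, Prph 1449797_x_at was at -0.012 and Stmn2 1423280_at at -0.25. Without arrays numbered 3, Prph 1422530_at was at 0.13, Prph 1449796_at at 0.45, Nefh at -0.068, Stmn2 1423281_at at 0.21 and Stmn3 1435113_x_at at 0.015. With the fixed block Nefh was at -0.22. Leaving out 1 array gave -0.54 to 0.080 for Prph 1422530_at, -0.029 to 0.070 for Prph 1449797_x_at, -0.33 to 0.30 for Prph 1449796_at, -0.15 to 0.35 for Nefh, -0.28 to 0.57 for Stmn2 1423280_at and -0.17 to 0.14 for Ina 1418178_at. Median scaling and quantile normalization moved the median of all probe sets from 0.011 to -0.00068 and 0.0033.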

Other observations

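Within A/J, 13 of the 18 probe sets were highest on array 3, and within DBA/2J, 12 were highest on array 2. Several of the 18 read the same gene. The same was not counted over all probe sets tested, so a trait of these arrays cannot be told apart from one of the genes. After each strain's mean was removed, Uchl1 and Ina 1448991_a_at deviated together over the 6 arrays (r = 0.98), as did Nefl 1454672_at and Nefm (r = 0.92) and Nefl 1454672_at and Prph 1422530_at (r = 0.92). Uchl1 also deviated with Prph 1422530_at (r = 0.96), Nefm (0.88) and Nefl 1454672_at (0.86), whose strain differences had the other sign. These deviations therefore do not divide the genes by the direction of their strain difference. Nefh ran against Nefl, with r = -0.80 for 1426255_at and -0.76 for 1454672_at. These are descriptions over 6 arrays that share their labelling and scaling, chosen among all pairs of the 18. The genes whose log2 values over the 6 arrays were most like the mean of the 10 were Dpyd (r = 0.99), Cox18 (0.99), B4galt2 (0.97), Plcd1 (0.97) and Oasl2 (0.96), out of 12996 compared. Their r are the highest of so many over only 6 arrays and were given no test. They do not show that these genes are regulated together.

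Some list genes outside the naming rule had arrays that did not overlap and did not pass by limma. Those given here are examples, and other list genes did so too. Of all 13006 genes tested, 1688 had all DBA/2J arrays above all A/J arrays and 1260 had all below. Tuba4a, an alpha-tubulin, was at -0.87 (adjusted p = 0.0535). Isl1, a factor of sensory and sympathetic neurons, was at 1.34 (0.121), and Ncam1 at 0.93 (0.0736). Elavl2, an RNA-binding protein of neurons, was at -0.60 (0.280). Other probe sets ran from -0.46 to 1.13 for Ncam1 and from -0.79 to -0.0085 for Elavl2. Their gene means were 0.50 and -0.44 and did not pass (limma adjusted p = 0.330 and 0.345).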
